A study of Mus musculus with 8 samples.

Results

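The genes described here are 46 factors of ribosome biogenesis that act mainly in the nucleolus, chosen by gene symbol among the 35072 genes of the deposited count table. There are 6 of RNA polymerase I and rDNA transcription, 3 abundant nucleolar proteins, 4 of the box C/D snoRNPs, 4 of the box H/ACA snoRNPs, 16 of the 40S pathway and 13 of the 60S pathway. Each of the 46 was present once in the table, and each passed the filter on low counts that left 13299 genes. Ribosome biogenesis starts in the nucleolus, where RNA polymerase I transcribes the ribosomal DNA into a long precursor RNA. Small nucleolar ribonucleoproteins (snoRNPs) guide the chemical modification of this precursor, and helicases, GTPases and scaffold proteins fold and cut it into the precursors of the small (40S) and large (60S) ribosomal subunits. Naive T cells are small and make few ribosomes; activation through the T cell receptor is known to enlarge the nucleolus and to raise this machinery, in part through the transcription factor MYC.

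The study compared formate, a one-carbon metabolite, with its vehicle in mouse CD8 T cells. Formate libraries came from cells kept for 24 h with 2 mM formate, and PBS libraries from cells that received phosphate-buffered saline in its place; each group had 4 libraries. All 8 libraries came from wildtype naive CD8 T cells of spleen and lymph nodes, activated beforehand over 18 h with anti-CD3, anti-CD28 and interleukin-12, so no unstimulated cells are among the samples. How the cells were isolated, and whether the libraries of a group came from separate animals or cultures, is not given in the sources used here; p-values therefore reflect only how far these samples differed among themselves, and that spread may be technical.

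Formate libraries held between 29361986 and 38010357 estimated counts, and PBS libraries between 30275374 and 41393093. Summed over 7 markers, CD8 T cell genes lay between 1983 and 2346 CPM (counts scaled to library size, with the trimmed mean of M values as normalisation) in formate libraries and between 1928 and 2561 CPM in PBS libraries, while 6 B cell markers summed to at most 25.7 and 22.7 CPM. Each title ends in a code, and the codes form neighbouring pairs of 1 formate and 1 PBS library: 2 with 1, 8 with 7, 11 with 10 and 14 with 13. Formate libraries 1 to 4 had codes 11, 14, 2 and 8, and PBS libraries 1 to 4 had codes 10, 13, 1 and 7, so that a library number marks the same pair in both groups. The first principal component, with 51.2% of the variance, separated codes 10 to 14 from codes 1 to 8 and not formate from PBS. On the second, with 12.4%, formate libraries scored from 8.99 to 23.0 and PBS libraries from -28.7 to 1.87.

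Members with an entry in the RefSeq promoter table were ranked by p-value in the fit with neighbouring title codes as a replicate block. The promoters of the 4 members with the smallest of these p-values are printed here, because these genes are among the decreases described next. Each is 300 bases of the GRCm38.p6 build, from 250 bases before to 50 after the gene's start in RefSeq, so that it covers the upstream region and the first bases of the transcript, read 5′ to 3′ on the gene's strand, which is the minus strand for all of them. Capitals mark the ETS-type motif CCGGAAG on either strand (CTTCCGG when read from the other strand); none of these windows holds the E-box CACGTG, the motif bound by MYC with its partner MAX.
Ncl chr1:86359406-86359705: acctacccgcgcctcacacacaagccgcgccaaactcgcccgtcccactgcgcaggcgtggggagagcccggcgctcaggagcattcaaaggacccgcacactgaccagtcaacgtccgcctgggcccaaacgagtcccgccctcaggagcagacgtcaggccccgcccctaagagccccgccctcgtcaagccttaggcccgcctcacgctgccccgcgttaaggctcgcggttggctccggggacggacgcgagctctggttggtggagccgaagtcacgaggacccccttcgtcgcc
Bms1 chr6:118419368-118419667: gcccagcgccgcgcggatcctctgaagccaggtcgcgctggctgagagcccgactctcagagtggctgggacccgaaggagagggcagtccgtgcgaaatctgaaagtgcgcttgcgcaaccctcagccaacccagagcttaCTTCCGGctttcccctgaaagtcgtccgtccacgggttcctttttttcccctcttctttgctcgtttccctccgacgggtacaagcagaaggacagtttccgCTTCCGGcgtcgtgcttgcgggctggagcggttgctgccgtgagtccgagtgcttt
Nop14 chr5:34660099-34660398: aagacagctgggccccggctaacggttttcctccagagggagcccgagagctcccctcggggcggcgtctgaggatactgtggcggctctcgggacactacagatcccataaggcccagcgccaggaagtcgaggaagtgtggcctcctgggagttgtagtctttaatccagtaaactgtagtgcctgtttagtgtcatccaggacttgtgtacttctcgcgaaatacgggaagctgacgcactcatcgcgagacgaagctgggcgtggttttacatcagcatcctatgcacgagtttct
Gar1 chr3:129831347-129831646: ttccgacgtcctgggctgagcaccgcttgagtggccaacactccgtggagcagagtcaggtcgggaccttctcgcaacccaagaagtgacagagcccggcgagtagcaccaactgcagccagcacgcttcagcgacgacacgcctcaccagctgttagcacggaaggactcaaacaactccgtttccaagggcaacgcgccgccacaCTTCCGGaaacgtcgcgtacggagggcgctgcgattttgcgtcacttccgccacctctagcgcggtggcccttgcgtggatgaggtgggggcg

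Among the members called lower in the fit with the replicate block, the E-box stood in Nop2, Pes1 and Tsr1. The stretches around it, all on the plus strand of GRCm38.p6, are given for comparison, with CACGTG and CCGGAAG in capitals.
Nop2 chr6:125131796-125131855: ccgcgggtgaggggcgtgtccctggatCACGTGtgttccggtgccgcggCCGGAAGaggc
Pes1 chr11:3963950-3964009: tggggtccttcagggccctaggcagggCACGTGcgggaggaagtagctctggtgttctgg
Tsr1 chr11:74898077-74898129: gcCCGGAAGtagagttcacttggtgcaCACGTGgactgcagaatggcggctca

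Of the 46 members, 40 had a promoter in the table; Npm1, Fbl, Bop1, Rrp12, Tcof1 and Rrs1 had none. CACGTG occurred in 9 of the 40 members (22.5%) and in 2187 of the 27025 genes of the table (8.09%). A gene was counted once if any of its windows held the motif. Members are divided next by their call in the fit with the replicate block. CACGTG occurred in 3 of 15 that fell (20.0%), in 0 of 2 that rose and in 6 of 23 that did not pass (26.1%). CCGGAAG, which does not overlap the E-box letters, was found on either strand in 15 of 40 members (37.5%), against 9.93% of the genes of the table. It occurred in 7 of 15 members that fell (46.7%), in 0 of 2 that rose and in 8 of 23 that did not pass (34.8%). The ETS-type motif and the E-box stretches were chosen after the promoter sequences had been seen. All members passed the filter on low counts, whereas the 27025 genes of the table outnumber the 13299 that passed it. Motif shares among the tested genes alone were not computed. A match is a run of letters and not a measured binding site.

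The comparison of formate with PBS asks whether these genes changed with the treatment. Most of the 46 genes lay slightly lower in formate than in PBS: the median log2 change was -0.12, against -0.0080 over all tested genes, and the lowest value was that of Ncl (nucleolin), at 2617 ± 827 CPM in formate and 3446 ± 1082 CPM in PBS (SD, n = 4 each). This median moved with single libraries: it was 0.0011, with 21 of 46 genes below 0, without formate library 1, -0.0090 (24 of 46) without PBS library 3 and -0.024 (28 of 46) without PBS library 4. It was -0.074, -0.25, -0.21 and -0.28 without formate library 2, formate library 3, formate library 4 and PBS library 1. In the comparison of the groups without a pairing term, none of these differences exceeded the spread between libraries. EdgeR's quasi-likelihood test with Benjamini-Hochberg adjustment called 0 of the 46 in either direction, with adjusted p-values from 0.998 upward, against 0% lower and 0.00752% higher among the 13299 tested genes. At an unadjusted p under 0.05 the test held 0 members in either direction, against 1.72% of all tested genes lower and 3.05% higher. DESeq2 also called 0 members, against 0.0752% of all tested genes lower and 0.0827% higher.

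With the neighbouring title codes as a replicate block, 17 of the 46 fell at an adjusted p under 0.05 (37.0%, against 7.52% of all tested genes called lower), 2 rose (4.35%, against 5.35% called higher) and 27 did not pass the same test. The median log2 change was again -0.12, with 40 of 46 below 0, but the median standard error was 0.046 in the block fit and 0.22 without it. Over all tested genes the median standard error in the block fit was larger, at 0.070. Its part in the difference between the shares of 37.0% and 7.52% was not tested. No label states that neighbouring codes belong together, so these calls rest on a pairing read from the titles. The members were also chosen with earlier results of these data known. In the block fit the median log2 change of the members was -0.142 without codes 10 and 11 and -0.1 without codes 7 and 8. It was -0.101 without codes 13 and 14 and -0.113 without codes 1 and 2. The counts depended on the pairs, for the members and for all genes alike. Of the members 18 were called lower without codes 10 and 11, 12 without codes 7 and 8, 8 without codes 13 and 14 and 4 without codes 1 and 2; of all tested genes these were 815, 419, 278 and 177, against 1000 with all pairs. Ncl, Nop14, Bms1 and Ddx10 were called lower in the block fit and in all 12 of its alternatives; the other 15 calls were each lost in 1 to 8 of them. With offsets for the GC content of transcripts in the same fit, 14 members fell (5.62% of all tested genes did) and 1 rose (3.83% did). These offsets were built in 3 ways, revised after their calls had been seen, and the earlier versions called 23 and 13 members lower, with 1339 and 774 of all tested genes. Scaled by library size only, 11 members fell and 3 rose, with 539 of all tested genes called lower and 1048 higher. RNA was measured in bulk, so fewer cells of a type and less RNA per cell cannot be told apart. The share of counts from mitochondrial genes was higher in formate in all 4 pairs, at 0.702 ± 0.152% in formate and 0.462 ± 0.0705% in PBS (SD, n = 4 each), and its part in the result was not tested.

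**Figure D1:**
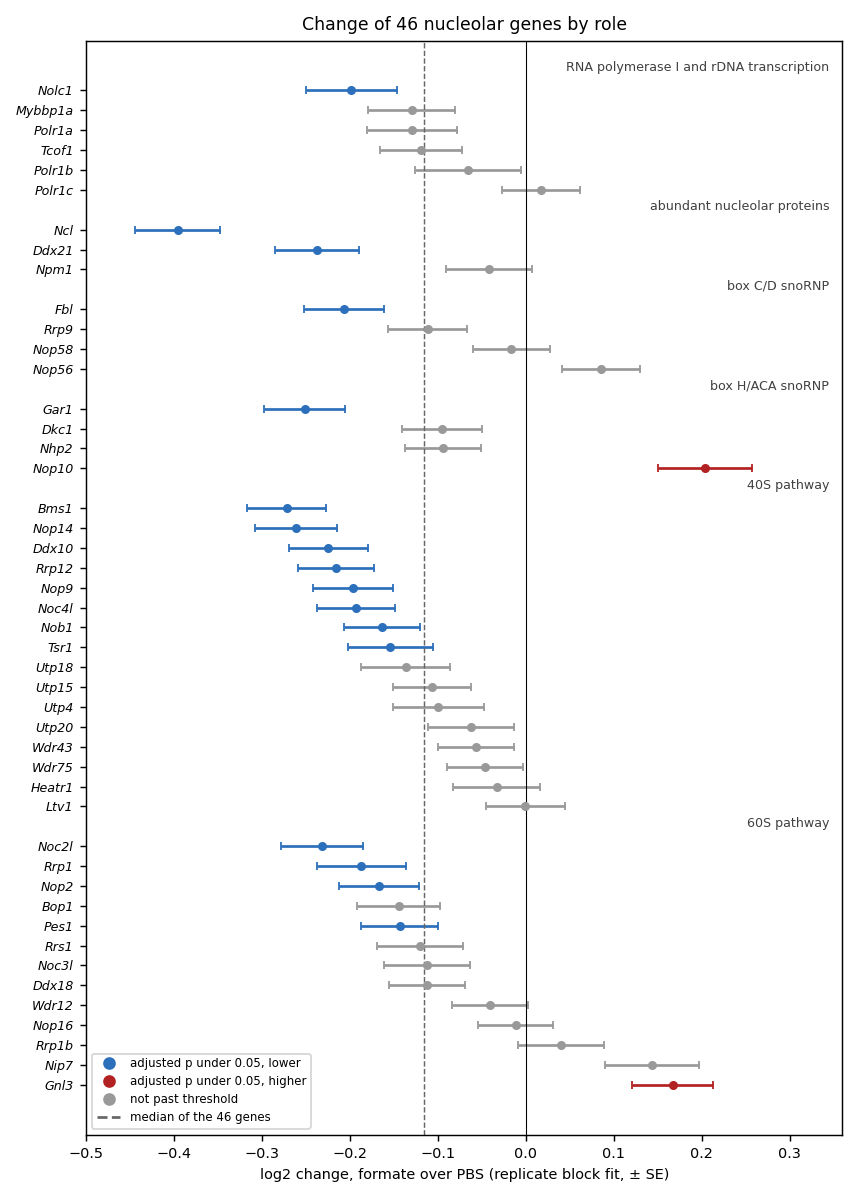
Log2 change (formate over PBS) of each of the 46 genes in the fit with the replicate block, grouped by role, with standard errors as bars; blue points fell, red points rose, and grey points did not pass an adjusted p of 0.05. The points of 40 genes lie below 0, the dashed line marks the median of -0.12, and Ncl lies farthest to the left at -0.40.

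The abundant nucleolar proteins held the largest change. Ncl encodes nucleolin, an RNA-binding protein of rDNA transcription and early precursor processing. It measured 1722, 2127, 3466 and 3154 CPM in formate libraries 1 to 4, against 2184, 2932, 4532 and 4136 CPM in PBS libraries 1 to 4. Each formate library was lower than the PBS library of its pair, while the ranges of the groups overlapped, with libraries 3 and 4 high in both. The log2 change was -0.40 ± 0.28 without the pairing term and -0.40 ± 0.048 in the block fit (SE), where Ncl fell by 24.0% (edgeR adjusted p = 0.000799); within pairs it was -0.39, -0.39, -0.34 and -0.46 for codes 1 and 2, 7 and 8, 10 and 11, and 13 and 14. Ddx21, an RNA helicase that links polymerase I transcription to rRNA processing, measured 439.9, 564, 932 and 852 CPM in formate, against 499, 721, 1094 and 967 CPM in PBS. It too was lower in all 4 pairs with overlapping ranges, and its block log2 change was -0.24 ± 0.048 (edgeR adjusted p = 0.00647). Npm1 encodes nucleophosmin, a chaperone of ribosomal proteins that is among the best known nucleolar markers. Its values were 3358, 3784, 3685 and 4049 CPM in formate and 3617, 3747, 3706 and 4235 CPM in PBS. These differed little in any pair: the log2 change was -0.042 ± 0.049 (edgeR adjusted p = 0.627). Npm1 has processed pseudogenes, among which the authors' estimate divides reads, and its values are uncertain to that extent.

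**Figure D2:**
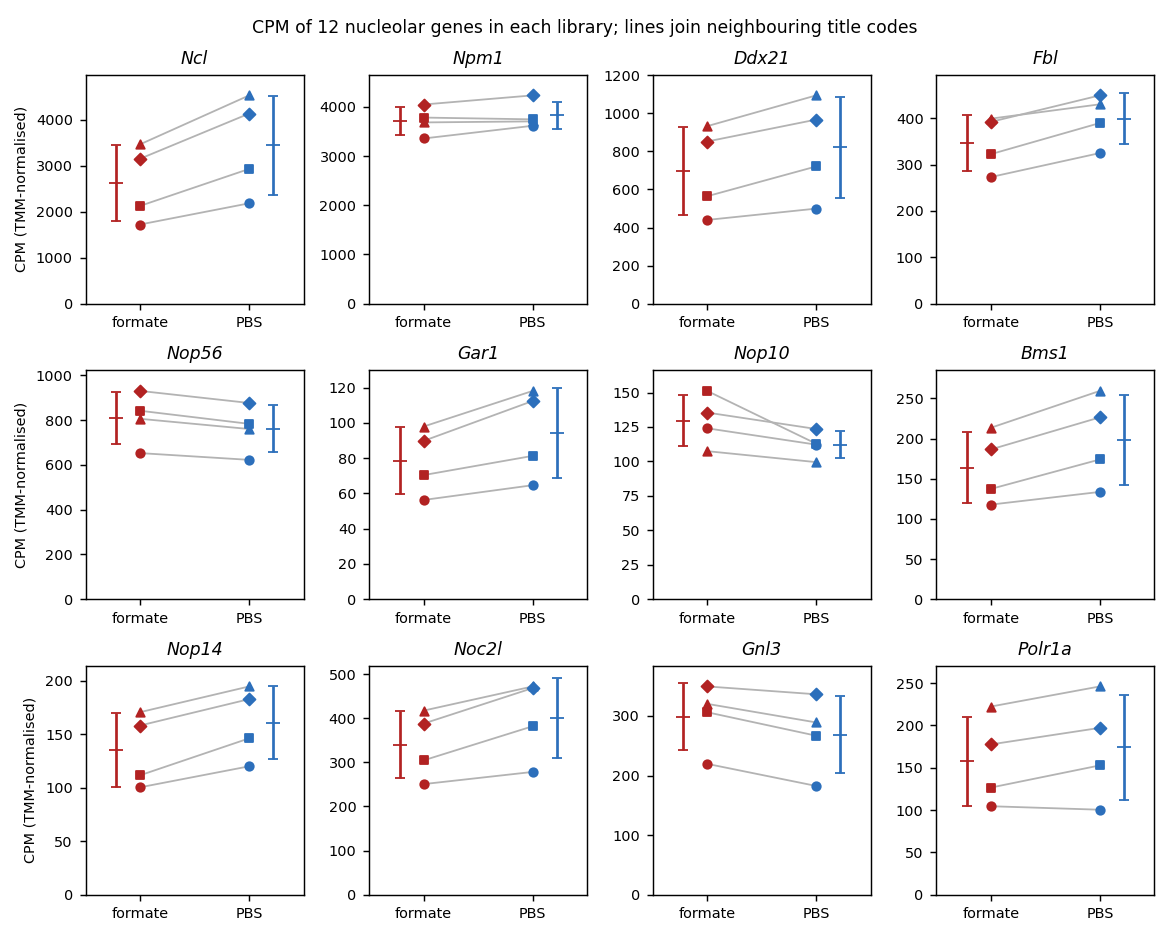
CPM of 12 of the genes in each library, formate left and PBS right, with the symbols circle, square, triangle and diamond for libraries 1 to 4; lines join neighbouring title codes and outer bars give the mean ± SD (n = 4). Ncl, Ddx21, Fbl, Gar1, Bms1, Nop14 and Noc2l are lower in formate in all 4 pairs, Nop56, Nop10 and Gnl3 are higher in all 4, and Npm1 is close to level.

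Among the 6 genes of RNA polymerase I and rDNA transcription, 1 fell, 0 rose and 5 did not pass. The 1 of 6 is 16.7%, against 7.52% of all tested genes called lower, and rests on a single gene. Nolc1, a chaperone of snoRNPs that also binds RNA polymerase I, measured 305, 396, 637 and 589.7 CPM in formate, against 309.5, 498, 744 and 687 CPM in PBS. The pair of library 1 was nearly level and the other pairs lay lower in formate; the block log2 change was -0.20 ± 0.052 (edgeR adjusted p = 0.0217). The catalytic subunits of the polymerase did not pass the test. Polr1a, the largest subunit, measured 105, 127, 222 and 178 CPM in formate and 100.4, 153, 246 and 197 CPM in PBS (block log2 -0.13 ± 0.052, edgeR adjusted p = 0.108). Polr1b, the second largest, measured 80.6, 108, 176 and 163 CPM in formate and 70.1, 127, 197 and 170.1 CPM in PBS (block log2 -0.066 ± 0.061, edgeR adjusted p = 0.521). Both were higher in formate in the pair of library 1 and lower in the other pairs. Polr1c, a subunit shared with RNA polymerase III, was level across groups and library sets, with 121, 122, 109 and 118 CPM in formate and 123, 114, 107 and 121 CPM in PBS (block log2 0.017 ± 0.044, edgeR adjusted p = 0.842). Tcof1 (treacle, a cofactor of rDNA transcription) and Mybbp1a, a nucleolar regulator of transcription, had block log2 changes of -0.12 and -0.13 that did not pass, though both were lower in formate in all 4 pairs.

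The box C/D snoRNPs, which guide 2′-O-methylation of rRNA, had 1 member that fell, 0 that rose and 3 that did not pass. The 1 of 4 is 25%, against 7.52% of all tested genes called lower, and rests on a single gene. Fbl encodes fibrillarin, the methyltransferase of the complex. It measured 273, 322, 399 and 392 CPM in formate, against 325, 389.8, 430.2 and 449 CPM in PBS. It was lower in all 4 pairs and its ranges overlapped; the block log2 change was -0.21 ± 0.046 (edgeR adjusted p = 0.00981). Its scaffold partners did not pass the test. Nop56 measured 653, 842, 806 and 930.3 CPM in formate and 622, 783, 760.1 and 876 CPM in PBS. Each formate library was slightly higher than its neighbour, with a block log2 change of 0.086 ± 0.044 that did not pass (edgeR adjusted p = 0.22). Nop58 measured 290.4, 367, 440.4 and 456 CPM in formate and 285, 376, 439.9 and 476 CPM in PBS, with a block log2 change of -0.016 ± 0.044 (edgeR adjusted p = 0.844). Rrp9, the protein specific to the U3 snoRNP of the 40S pathway, was lower in all 4 pairs and did not pass (-0.11).

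The box H/ACA snoRNPs guide pseudouridylation. Of their 4 members 1 fell (25%), 1 rose (25%) and 2 did not pass. Over all tested genes 7.52% were called lower and 5.35% higher. In a list of 4 genes each share rests on 1 call. Gar1 measured 56.3, 70.4, 97.9 and 89.8 CPM in formate, against 64.7, 81.3, 118 and 112 CPM in PBS. It was lower in every pair, and the block log2 change was -0.25 ± 0.046 (edgeR adjusted p = 0.00448). Nop10, the smallest protein of the complex, measured 124, 151, 107 and 135 CPM in formate, against 112, 113, 99.5 and 124 CPM in PBS. It was higher in every pair, most of all in the pair of library 2, and rose by 0.20 ± 0.053 on the log2 scale (edgeR adjusted p = 0.0221). Leaving out any 1 of the pairs ended this call, as did the first version of the GC offsets. Dkc1 encodes dyskerin, the pseudouridine synthase itself. Its values of 184, 232, 326 and 310.2 CPM in formate and 183, 255, 345 and 350.1 CPM in PBS gave a block log2 change of -0.10 ± 0.046 (edgeR adjusted p = 0.185). Nhp2, which binds the guide RNA, was lower in all 4 pairs and did not pass (-0.094). Reads of Dkc1 and Nhp2 could include some of the overlapping exons of Mpp1 and Rmnd5b on the opposite strand, over 45 and 44 bases.

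The 40S pathway, with 16 of the 46 members, held 8 of the 17 decreases. Of its 16 genes 8 fell (50%, against 7.52% of all tested genes), none rose and 8 missed the threshold. Its median block log2 change was -0.15. Bms1, a GTPase of the small subunit processome, measured 118, 137, 213 and 186 CPM in formate, against 134, 174, 259 and 227 CPM in PBS. Nop14, a structural factor of the same particle, measured 100.4, 112, 171 and 158 CPM in formate, against 120.0, 146, 195 and 183 CPM in PBS. Ddx10, an RNA helicase, measured 78.1, 87.0, 110.2 and 106 CPM in formate, against 95.7, 103, 122 and 123 CPM in PBS. All 3 genes were lower in formate in every pair, and their group ranges overlapped, with libraries 3 and 4 above libraries 1 and 2 in both groups. In the block fit Bms1 changed by -0.27 ± 0.045 (edgeR adjusted p = 0.0028). Nop14 changed by -0.26 ± 0.047 (edgeR adjusted p = 0.00426), and Ddx10 by -0.22 ± 0.045 (edgeR adjusted p = 0.00643).

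Other factors of the 40S pathway, from the processome to the last maturation steps, also fell, with block log2 changes between -0.22 and -0.15. Noc4l, which binds Nop14 in yeast, measured 96.5, 129, 205 and 197 CPM in formate, against 109, 157, 229.8 and 218 CPM in PBS (block log2 -0.19 ± 0.044, edgeR adjusted p = 0.0118). Rrp12, a factor of subunit export and maturation in yeast, measured 88.4, 115, 186 and 175 CPM in formate, against 103, 139, 207 and 203 CPM in PBS (block log2 -0.22 ± 0.043, edgeR adjusted p = 0.00654). Both were lower in all 4 pairs. Nop9, an RNA-binding protein of the precursor in yeast, measured 61.7, 73.3, 102 and 101 CPM in formate, against 68.9, 88.0, 118 and 111 CPM in PBS (block log2 -0.20 ± 0.045, edgeR adjusted p = 0.0124). Nob1, the endonuclease that makes the mature end of 18S rRNA, measured 72.0, 88.2, 113 and 113 CPM in formate, against 81.3, 101, 124 and 125 CPM in PBS (block log2 -0.16 ± 0.043, edgeR adjusted p = 0.0232). Tsr1, a GTPase-like factor of late cytoplasmic assembly, measured 104, 133, 221 and 203 CPM in formate, against 105, 162, 244 and 228 CPM in PBS (block log2 -0.15 ± 0.048, edgeR adjusted p = 0.0463). These were lower in all 4 pairs too, but the pair of library 1 was nearly level for Tsr1. Nop9 shares 1136 exonic bases with Cideb and Tsr1 shares 1240 with Srr, both on the opposite strand and both low (0.328 and 4.69 CPM on average), and since the strand setting of the counting is not given their reads cannot be told apart there.

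The 8 members of the 40S pathway that did not pass were mostly the WD40 and scaffold proteins of the early processome. Utp18, Utp15, Wdr43 and Wdr75 were lower in formate in all 4 pairs, with block log2 changes of -0.14, -0.11, -0.057 and -0.047. Utp4 and Utp20 were lower in 3 of 4 pairs (-0.10 and -0.063), and Heatr1 in 2 of 4 (-0.033). Ltv1, a late factor released before the subunit is complete, was level at 114 ± 28.6 CPM in formate and 113 ± 24.7 CPM in PBS (SD, n = 4 each).

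In the 60S pathway 4 of 13 genes fell (30.8%, against 7.52% of all tested genes), 1 rose (7.69%, against 5.35%) and 8 missed the threshold. Noc2l works with Noc3l on large subunit precursors in yeast. It measured 251, 304, 417 and 388 CPM in formate, against 278, 382, 472 and 468 CPM in PBS. It was lower in all 4 pairs, with a block log2 change of -0.23 ± 0.046 (edgeR adjusted p = 0.00635), and shares 598 exonic bases with the opposite-strand gene Samd11 (0.541 CPM). Rrp1, a large subunit precursor protein, measured 198, 228, 295 and 288 CPM in formate, against 246, 277, 307 and 309 CPM in PBS. Most of its decrease lay in the pairs of libraries 1 and 2, with within-pair log2 changes of -0.056, -0.10, -0.31 and -0.28 in the order of codes given above and a block value of -0.19 ± 0.051 (edgeR adjusted p = 0.0254). Nop2, a cytosine methyltransferase of 28S rRNA, measured 154, 225, 352 and 329 CPM in formate, against 170.3, 270.3, 374 and 369.8 CPM in PBS (block log2 -0.17 ± 0.045, edgeR adjusted p = 0.0252). Pes1, a member of the PeBoW complex with Bop1 and Wdr12, measured 183, 215, 255 and 258 CPM in formate, against 213, 239, 271 and 280.1 CPM in PBS (block log2 -0.14 ± 0.044, edgeR adjusted p = 0.0418). Both were lower in all 4 pairs. The partners of Pes1 did not pass: Bop1 had a block log2 change of -0.14 ± 0.047 (edgeR adjusted p = 0.0565) and Wdr12 of -0.041 ± 0.043 (edgeR adjusted p = 0.576).

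Gnl3 encodes nucleostemin, a nucleolar GTPase known from stem and cycling cells. It measured 219.6, 306, 320.3 and 349 CPM in formate, against 182, 267, 289 and 336 CPM in PBS. It was higher in all 4 pairs and rose by 0.17 ± 0.046 on the log2 scale (edgeR adjusted p = 0.0282); the call was kept without codes 7 and 8 and ended without any of the other pairs, and it also ended with GC offsets in the first and last of their versions. Nip7, which acts on large subunit precursors, was higher in 3 of 4 pairs and did not pass (0.14 ± 0.053, edgeR adjusted p = 0.0891). Rrs1 of the 5S particle (-0.12), Noc3l (-0.11) and the helicase Ddx18 (-0.11) had values below 0 that did not pass, and Nop16 (-0.012) and Rrp1b (0.040) were near 0.

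Across pairs, the median lay below 0 each time and varied in size. The median log2 change of the 46 genes was -0.10 for codes 1 and 2, -0.14 for codes 7 and 8, -0.049 for codes 10 and 11 and -0.19 for codes 13 and 14, with 39, 40, 32 and 38 genes below 0. Of the 46 genes 29 were lower in formate in all 4 pairs (63.0%, against 19.5% of all tested genes) and 3, Nop56, Nop10 and Gnl3, were higher in all 4 (16.0% of all tested genes were). No member had every formate library below every PBS library, which 1.85% of all tested genes did, and none had every formate library above, which 2.44% did.

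**Figure D3:**
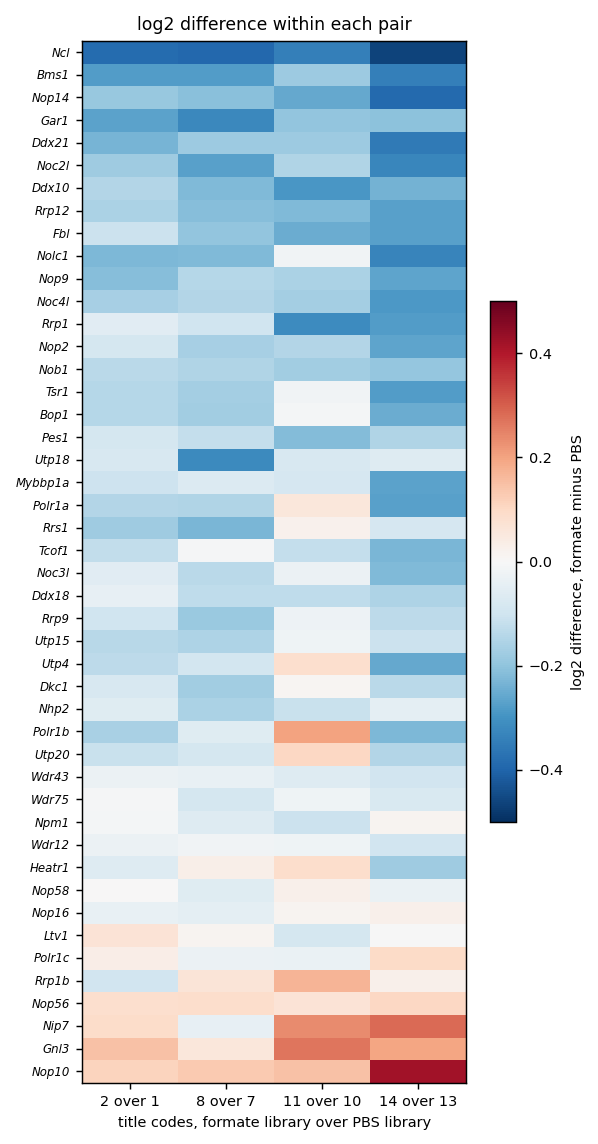
Log2 ratio of formate over PBS within each pair of neighbouring title codes for the 46 genes; each row is a gene and each column a pair. The column of codes 14 over 13 holds the lowest median, -0.19, and the column of codes 11 over 10 the median nearest to 0, -0.049.

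The difference between library sets was larger than that between treatments. The level of the 46 genes was a median 0.57 log2 units higher in codes 1 to 8 than in codes 10 to 14, and 44 of 46 were higher there; over all tested genes this median was -0.0059. The exceptions were Polr1c and Nop10. Ncl averaged 3310.0 CPM in formate and 4334 CPM in PBS in codes 1 to 8, and 1925 CPM in formate and 2558 CPM in PBS in codes 10 to 14. Summed over the 46 genes, the level was 12254, 15003, 19386 and 19068 CPM in formate libraries 1 to 4, against 13267, 16793, 21335 and 21159 CPM in PBS libraries 1 to 4. Each formate sum was below that of its pair, and the sums of libraries 3 and 4 exceeded those of libraries 1 and 2 in both groups. Without Ncl and Npm1 the sums were 10092 ± 2399 CPM in formate and 10866 ± 2633 CPM in PBS (SD, n = 4 each), again lower in all 4 pairs. What distinguishes the library sets is not given in the labels, and each set holds 2 pairs.

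**Figure D4:**
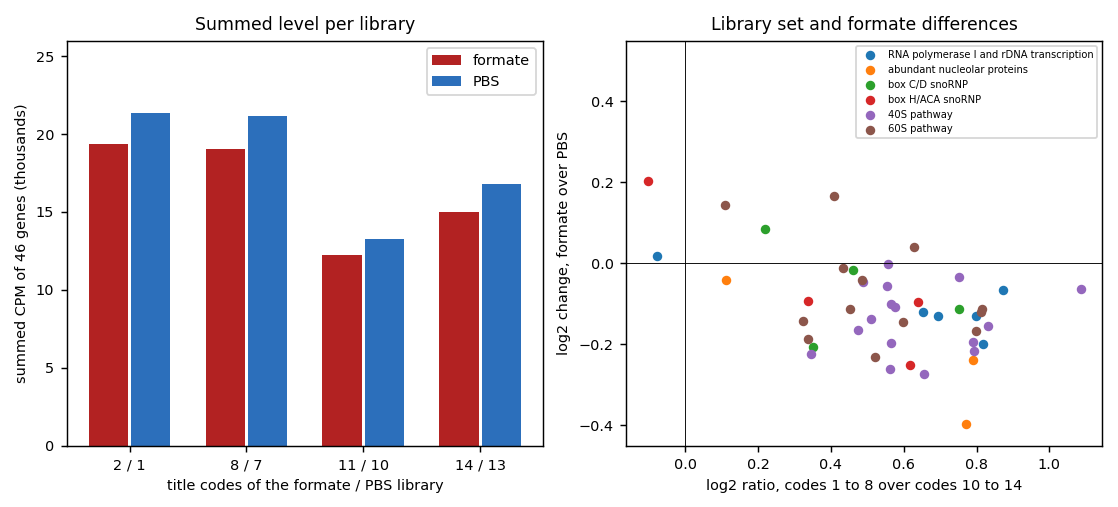
Left, summed CPM of the 46 genes in formate and PBS for each pair; right, for each gene, the log2 ratio of its level in codes 1 to 8 over codes 10 to 14 against its block log2 change. Formate bars are lower in every pair, by less than the gap between library sets, and nearly all genes lie on the side of higher levels in codes 1 to 8.

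Some members hold further genes within their bounds. By position in GENCODE M21, 7 members span snoRNA genes on the same strand, some of which overlap annotated exons of the member: Nop56 with 5, Nop58 with 4, Ncl, Wdr43 and Gnl3 with 3 each, Tsr1 with 2 and Dkc1 with 1. Their median block log2 change was -0.057, against -0.12 for the 39 other members. These 7 include the largest decrease (Ncl) and 1 of the 2 increases (Gnl3). Libraries were made from polyadenylated RNA, so the snoRNAs themselves were not measured.

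Other genes of the pathway were described by 5 further lists with 117 genes, of which 116 were tested. These lists were chosen with earlier results of these data known. In the block fit 27 fell (23.3%, against 7.52% of all tested genes), 3 rose (2.59%, against 5.35%) and 86 did not pass. The median log2 change of the 116 was -0.070, and the unpaired test called 0. Of 39 other 40S factors 11 fell (28.2%) and 1 rose (2.56%). Aatf, a processome factor, was at 58.9 ± 18.9 CPM in formate and 70.8 ± 17.4 CPM in PBS (block log2 -0.29 ± 0.054, edgeR adjusted p = 0.00501). Bysl (bystin) and Rrp7a also fell (-0.22 and -0.22), and Dimt1, a dimethyltransferase of 18S rRNA, rose (0.27). Of 43 other 60S factors 11 fell (25.6%) and 0 rose. Those that fell included Las1l, a nuclease of the internal spacer (-0.24), its partner Pelp1 (-0.24), the helicase Ddx54 (-0.24) and the methyltransferase Ftsj3 (-0.22). Of 12 other RNA polymerase I genes 1 fell (8.33%, near the 7.52% of all tested genes) and 2 rose (16.7%). Their median log2 change was 0.00094. Ubtf, the upstream binding factor of rDNA, fell by 0.18, while Taf1d of the selectivity factor rose by 0.27 and Polr1f by 0.20. Of 10 snoRNP assembly genes 2 fell (20%), the ATPase Ruvbl1 (-0.24) and Shq1 (-0.22). Of 12 tested genes of the RNA exosome and rRNA trimming 2 fell (16.7%), Exosc10 (-0.18) and Mtrex (-0.16).

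**Figure D5:**
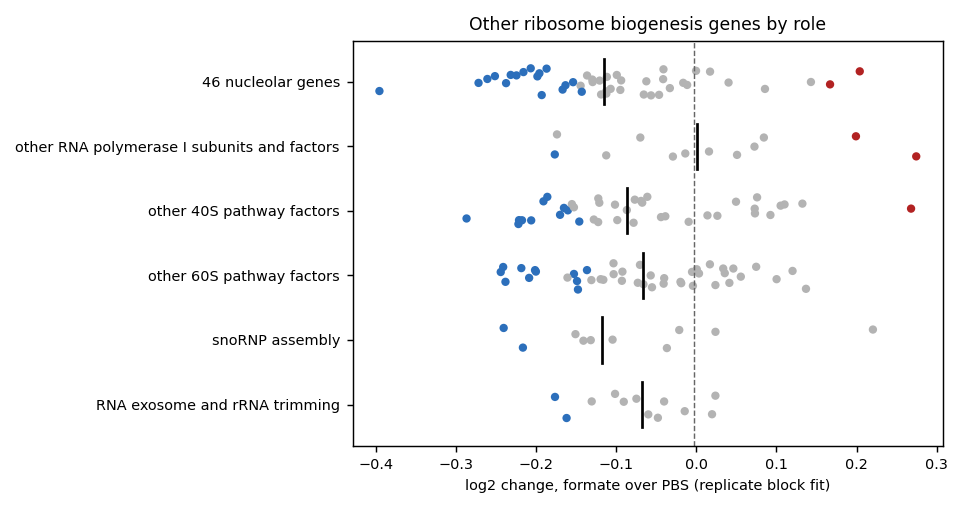
Block log2 change (formate over PBS) of each gene in the 46 members and in the 5 further lists, with a black bar at each list's median and a dashed line at the median of all tested genes; blue genes fell, red genes rose and grey genes did not pass. The median of the 46 members is -0.12, and each of the 6 lists holds genes on both sides of 0.

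Myc, the transcription factor whose motif was searched above, did not pass the test. It measured 372, 446, 548 and 553 CPM in formate, against 360.2, 484, 598 and 569 CPM in PBS. It was lower in 3 of 4 pairs, with a block log2 change of -0.060 ± 0.047 (edgeR adjusted p = 0.433).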

How the data were processed

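RNA was sequenced from 4 formate and 4 PBS libraries. The authors deposited estimated counts per gene for each library, neither normalised nor pooled. Per the submitters' processing notes, which give no versions, Trimmomatic, MultiQC and kallisto were used with builds named GRCm38 and mm10; the strand setting is not given in the sources used here. Fractions occurred in 56.7% of non-zero values, so the table was rounded to integers for the tests. The 8884 genes without a symbol, with 1.22% to 1.65% of a library's counts, were kept under their identifiers. Replicate libraries differed beyond sampling noise in every case (chi-square per degree of freedom at least 22.1). In the smallest library 3 counts equal 0.102 CPM, and this limit covers counting error only.

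The tests used edgeR 4.0.16 under R 4.3.3 (trimmed mean of M values, filterByExpr, robust quasi-likelihood test, Benjamini-Hochberg over 13299 genes, threshold 0.05); DESeq2 1.42.0 was an alternative. Log2 ratios within pairs used CPM plus 0.5. Standard errors were derived from the edgeR test, as the absolute log2 change divided by the square root of its F statistic. Groups come from the treatment label; library numbers follow accession order, and the pairing comes from neighbouring title codes. Deviations from the group means correlated at 0.653 (codes 1 and 2), 0.369 (7 and 8), 0.656 (10 and 11) and 0.370 (13 and 14), all over 0.1, and the best non-neighbours reached 0.270 to 0.373. Of 8 libraries 7 correlated best with their neighbour, so the correlations alone do not separate pairs from library sets for codes 7 and 8 or 13 and 14. The block value is given beside the unpaired one because it changes calls.

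The members and lists were chosen with earlier results of these data known. Full values are given for each called member and for Ncl, Npm1, Fbl, Nop56, Nop58, Dkc1, Polr1a, Polr1b and Polr1c; from each other list up to 4 called genes are named, by smallest p. Coordinates, overlaps and GC content come from GENCODE M21, and promoters from RefSeq. Alternatives were another normalisation, no filter, another tool, GC offsets, single library sets and leaving out libraries or pairs.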

Additional observations from a re-analysis of the deposited data

How the results depend on the processing

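Without the pairing term, 0 members were called under every alternative run, while over all genes DESeq2 called 10 lower and 11 higher, and the single call of edgeR was lost within either library set alone; without single libraries edgeR called 0 or 1 genes higher. The unpaired median of the members, -0.12, lay between -0.28 without PBS library 1 and 0.0011 without formate library 1, which leave the library sets unbalanced between the groups. With the replicate block, 17 and 2 members, 27 and 3 other pathway genes and 1000 and 711 genes in all were called lower and higher. With RLE size factors in the same fit these were 18 and 2 members, 29 and 3 other pathway genes and 1126 and 612 genes in all. With upper quartile scaling in the same fit these were 15 and 2 members, 20 and 4 other pathway genes and 736 and 832 genes in all. With library size only in the same fit these were 11 and 3 members, 12 and 7 other pathway genes and 539 and 1048 genes in all. Without the filter on low counts the block fit tested 23059 genes, against 13299 with it. It then called 20 and 2 members, 32 and 4 other pathway genes and 1361 and 916 genes in all. DESeq2 with the filter and the block called 19 and 2 members, 30 and 3 other pathway genes and 1082 and 492 genes in all. Under library size only the median of all genes moved to 0.033, and the members' share of lower calls is to be read against that. GC offsets were built 3 times, and the construction was revised after its calls had been seen. The first, which also shifted the scaling (median of all genes -0.033), called 23 and 0 members, 31 and 1 other pathway genes and 1339 and 354 genes in all. Centred offsets called 13 and 2 members, 21 and 1 other pathway genes and 774 and 499 genes in all, and centred offsets from protein-coding transcripts 14 and 1 members, 21 and 2 other pathway genes and 748 and 509 genes in all; GC offsets were among the alternatives chosen at the start, but all 3 versions were built with the data in view. Without codes 10 and 11 the block called 18 and 0 members, 22 and 4 other pathway genes and 815 and 556 genes in all. Without codes 13 and 14 the block called 8 and 0 members, 5 and 3 other pathway genes and 278 and 224 genes in all. Without codes 1 and 2 the block called 4 and 0 members, 6 and 1 other pathway genes and 177 and 160 genes in all. Without codes 7 and 8 the block called 12 and 1 members, 9 and 3 other pathway genes and 419 and 303 genes in all. 

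The calls of Ncl, Nop14, Bms1 and Ddx10 held in all 12 alternatives to the block fit, and those of Ddx21, Gar1, Rrp12 and Noc2l were lost in 1, without codes 1 and 2. The call of Pes1 was lost in 8, that of Tsr1 in 7 and those of Nob1, Nop2 and Rrp1 in 6. Those of Nop10 and Gnl3 were lost in 5, that of Nolc1 in 4 and those of Fbl, Nop9 and Noc4l in 2. Direction was scored against the unpaired fit, which called 0 members, so no call of that fit could be reversed. In the alternatives 91 values changed direction, and none of these passed the threshold there. Nop2 and Tsr1, called lower in the block fit, changed direction only without single libraries of the unpaired fit. Leaving out single libraries of the unpaired fit gave log2 changes of -0.35 to 0.071 for Polr1a, -0.32 to 0.11 for Polr1b, -0.024 to 0.050 for Polr1c, -0.29 to 0.062 for Tcof1, -0.30 to 0.031 for Mybbp1a, -0.080 to 0.0087 for Npm1, -0.15 to 0.091 for Nop58, -0.31 to 0.043 for Rrp9, -0.26 to 0.025 for Dkc1, -0.19 to 0.0028 for Nhp2, -0.27 to 0.0014 for Utp4, -0.25 to 0.00096 for Utp15, -0.36 to 0.22 for Utp20, -0.19 to 0.085 for Wdr43, -0.16 to 0.060 for Wdr75, -0.22 to 0.15 for Heatr1, -0.35 to 0.0015 for Tsr1, -0.11 to 0.14 for Ltv1, -0.35 to 0.021 for Nop2, -0.14 to 0.10 for Nop16, -0.14 to 0.18 for Rrp1b, -0.36 to 0.039 for Rrs1, -0.18 to 0.089 for Wdr12, -0.31 to 0.054 for Noc3l. In other settings Ltv1, level in the unpaired fit, lay below 0 (-0.043, -0.026, -0.016, -0.013, -0.012, -0.010, -0.0082, -0.0081, -0.0024, -0.0021, -0.0020, -0.00045), Nop16 above 0 (0.0041, 0.0050, 0.0088, 0.012, 0.014, 0.017, 0.024, 0.034), Nop58 above 0 (0.0019, 0.0040, 0.0068, 0.013, 0.019), Heatr1 above 0 (0.0026, 0.017), Polr1c below 0 (-0.0092, -0.0045) and Rrp1b below 0 (-0.021, -0.0025). The cause of these changes was not tested. The lowest count of a member in any library was 1422.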
